A study of Mus musculus with 10 samples.

Results

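Stitched clusters of p65 binding regions in stimulated regulatory T cells (Treg) are described here. p65 (RelA) is a subunit of the transcription factor NF-kB, and its binding was mapped by chromatin immunoprecipitation and sequencing (ChIP-seq), which yields genome regions, or peaks, enriched in the DNA precipitated with an antibody against p65. Overlapping entries of the stimulated Treg peak list were merged into 11077 regions, and neighbouring regions of a chromosome were joined where the gap between them was 12.5 kb or less. The 856 joined sets with 3 or more regions are the clusters, and their 3800 regions, 34.3% of the list, are called constituents. The clusters were thus chosen by the positions of the stimulated Treg regions, so the number, size and density of clusters are given as descriptions, with no test.

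The cells were primary Treg and conventional T cells (Tconv) from spleens and lymph nodes of C57BL/6 mice. Stimulated Treg received plate-bound antibody against CD3 and soluble antibody against CD28 for 3 h with IL-2 at 10 ng/ml, and stimulated Tconv the same antibodies for 3 h with IL-2 at 2 ng/ml. Unstimulated Treg and unstimulated Tconv are the other groups, and neither their culture nor the ages of the mice and the purity of the cells was stated in the labels. Each group had 2 libraries and 1 deposited peak list made from both, so the spread between libraries is unknown. Cell type and IL-2 concentration cannot be told apart in the stimulated groups, and neither can stimulation and culture. None of the 12 B cell marker genes examined had a stimulated Treg region. Of the 15 myeloid marker genes 2 had one, outside the clusters, against 5505 of all 21887 protein-coding genes. Binding near a gene does not measure its expression, so these counts do not measure the purity of the cells.

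NF-kB is held in the cytoplasm by inhibitors of the IkB family and enters the nucleus when receptors such as the T cell receptor and CD28 trigger their breakdown. In Treg, c-Rel and p65 are known to act in the development and maintenance of the lineage. Closely spaced binding sites of transcription factors around one gene are a known feature of genes that define a cell type, and joining sites at a fixed distance is the usual first step in describing them.

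A direct view of the DNA in the clusters came from the RefSeq promoter windows of GRCm38.p6, the assembly behind mm10. A window under a constituent was found for 592 genes, in 420 of the clusters. A form of the NF-kB site (3 G, any 2 bases, 3 T and 2 C, on either strand) occurred in 3.71% of the 701 windows under a constituent (26 windows of 23 genes, 95% Wilson interval 2.54 to 5.38%), in 2.06% of the 4173 windows under stimulated Treg regions outside clusters (1.67 to 2.54%) and in 1.63% of all 32851 windows in the table. A broader form (3 G, any 5 bases and 2 C), which includes the first, occurred in 67.6%, 71.8% and 50.8% of the same sets, and the AP-1 site TGANTCA in 4.99%, 4.34% and 7.81%. Some genes have several windows, and a match is a description of letters and not a bound site. The 250 bases before the gene start are printed below for 5 of the 23 genes with a match to the narrower NF-kB form. These 5 encode NF-kB subunits, their inhibitors, or ligands and receptors of the TNF family. They were picked among genes with a match, so they do not show how often promoters of such genes hold one. The narrower NF-kB form or its reverse complement is in capitals.
Nfkbia: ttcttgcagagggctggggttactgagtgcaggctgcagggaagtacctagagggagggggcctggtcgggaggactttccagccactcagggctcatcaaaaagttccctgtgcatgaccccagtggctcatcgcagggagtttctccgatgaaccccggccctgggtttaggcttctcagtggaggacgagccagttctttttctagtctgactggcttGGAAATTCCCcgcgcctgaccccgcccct
Tnfaip3: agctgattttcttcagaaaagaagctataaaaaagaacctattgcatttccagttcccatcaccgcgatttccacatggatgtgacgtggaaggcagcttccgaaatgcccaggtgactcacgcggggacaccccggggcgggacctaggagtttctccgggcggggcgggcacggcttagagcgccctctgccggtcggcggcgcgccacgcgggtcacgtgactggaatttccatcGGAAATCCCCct
Rel: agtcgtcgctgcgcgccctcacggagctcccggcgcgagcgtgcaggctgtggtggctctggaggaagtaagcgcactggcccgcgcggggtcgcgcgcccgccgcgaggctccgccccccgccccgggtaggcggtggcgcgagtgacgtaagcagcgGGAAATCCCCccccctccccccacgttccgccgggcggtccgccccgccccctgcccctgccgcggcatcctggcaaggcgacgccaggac
Tnfrsf9: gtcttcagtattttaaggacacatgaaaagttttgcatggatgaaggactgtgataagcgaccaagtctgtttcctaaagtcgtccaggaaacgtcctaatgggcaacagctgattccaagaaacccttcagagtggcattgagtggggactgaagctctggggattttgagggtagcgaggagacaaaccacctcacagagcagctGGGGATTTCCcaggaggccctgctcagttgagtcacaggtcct
Ltb: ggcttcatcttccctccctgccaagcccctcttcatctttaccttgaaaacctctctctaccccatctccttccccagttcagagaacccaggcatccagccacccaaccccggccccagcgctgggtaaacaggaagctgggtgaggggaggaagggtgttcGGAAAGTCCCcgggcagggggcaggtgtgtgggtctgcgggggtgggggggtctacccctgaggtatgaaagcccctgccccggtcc
These windows lie at chr12:55492648-55492897 (minus strand) for Nfkbia, chr10:19015411-19015660 (minus strand) for Tnfaip3, chr11:23770970-23771219 (minus strand) for Rel, chr4:150927749-150927998 (plus strand) for Tnfrsf9 and chr17:35194257-35194506 (plus strand) for Ltb. The match began at base -29 from the gene start in Nfkbia, -12 in Tnfaip3, -91 in Rel, -43 in Tnfrsf9 and -87 in Ltb. The constituents over the Nfkbia, Tnfaip3, Rel and Ltb windows had counterparts in all 3 other lists, while the one over the Tnfrsf9 window had a counterpart in stimulated Tconv alone.

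MicroRNA genes also lay in the clusters. Of the 1005 hairpins in the RefSeq table, 22 lay in the span of a cluster and 8 touched a constituent, in 6 clusters. The mature sequences of the hairpins at Mir21a and Mir142, which are widely studied in T cells, are printed with the seed (bases 2 to 8) in capitals. Both hairpins were chosen after the positions were seen.
mmu-miR-21a-5p: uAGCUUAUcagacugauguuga
mmu-miR-21a-3p: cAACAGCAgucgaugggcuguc
mmu-miR-142a-5p: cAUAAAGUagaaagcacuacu
mmu-miR-142a-3p: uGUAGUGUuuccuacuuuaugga
The 4 seeds all differ. The Mir21a hairpin (chr11:86584067-86584158, minus strand) lay inside Vmp1, in a cluster of 12 constituents over 51.6 kb, of which 3 had a stimulated Tconv counterpart and 0 an unstimulated one. The constituent at the hairpin was the weakest of the 12, at 6.47-fold, and the strongest, at chr11:86595317-86596946, reached 63.0-fold. The Mir142 hairpin (chr11:87756864-87756927, plus strand) lay in a cluster of 4 constituents between Supt4a and Tspoap1. All 4 of these had counterparts in stimulated Tconv and in unstimulated Treg, and 2 had one in unstimulated Tconv. The constituent over Mir142, at chr11:87753854-87758601, reached 19.8-fold. Fold values are the authors' fold enrichment of the strongest summit of a region over its local background, and they were compared within the stimulated Treg list alone.

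Most clusters were small. There were 392 clusters of 3 regions, 180 of 4 and 125 of 5, while 69 held 8 or more and 33 held 10 or more, up to 20. The span had a median of 16.2 kb (quartiles 10.6 and 23.3 kb, range 2.94 to 104.6 kb), and the clusters together spanned 16.2 Mb, of which constituents covered 4.62 Mb. Neighbouring constituents were separated by a median gap of 2948.5 bp, against 28.7 kb between all neighbouring regions of the list. The rule limits gaps within clusters to 12.5 kb, so the smaller value follows from the rule. At the limit of the rule, 63 gaps were up to 0.5 kb shorter than the stitching distance and 69 were up to 0.5 kb longer. The 392 clusters of 3 had a median span of 11.4 kb and a median strongest fold of 21.8. The 1122 pairs just outside the rule had 5.76 kb and 16.1-fold. Both values can rise with the number of regions in a set, so they do not compare the strength of single regions. The share of a chromosome's regions that lay in clusters was 41.6% on chromosome 1, 40.2% on chromosome 11 and 39.9% on chromosome 15, and 22.2% on X and 23.5% on chromosome 5. The single region on Y was in no cluster.

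The same rule was run on the other lists, which differ in length and in their lowest deposited −log10 p, so their numbers of clusters are not a measure of binding alone. Stimulated Treg gave 856 clusters from 11077 regions with a lowest −log10 p of 26.6, stimulated Tconv 282 clusters from 5734 regions (38.1), unstimulated Treg 23 clusters from 3208 regions (15.1) and unstimulated Tconv 9 clusters from 2961 regions (13.3). The largest held 20, 12, 4 and 3 regions in that order of lists. Of the stimulated Tconv clusters, 269 of 282 (95.4%) overlapped a stimulated Treg cluster, and 266 of the 856 stimulated Treg clusters (31.1%, 28.1 to 34.3%) overlapped a stimulated Tconv cluster. In a further 487 stimulated Treg clusters (56.9%) the span held stimulated Tconv regions that did not form a cluster, and in the other 103 it held none. The unstimulated clusters overlapped a stimulated Treg cluster in 15 of 23 cases for Treg and 7 of 9 for Tconv.

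**Figure D1:**
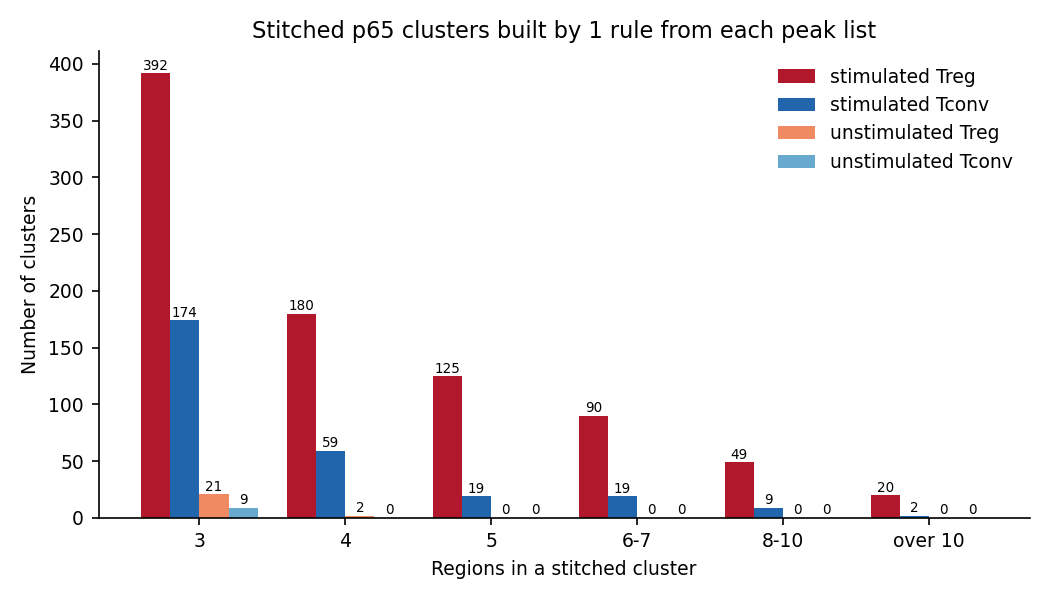
Number of stitched clusters (vertical axis) by the number of regions they hold (horizontal axis), built by the same rule from the stimulated Treg, stimulated Tconv, unstimulated Treg and unstimulated Tconv lists. Of the stimulated Treg clusters 20 held 11 or more regions, against 2 of the stimulated Tconv clusters, and no unstimulated cluster held more than 4.

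Relatively few constituents lay at the ends of genes. A summit within 1 kb of either end of a protein-coding gene was found in 512 of 3800 constituents (13.5%, 12.4 to 14.6%), against 3143 of 7277 regions outside clusters (43.2%, 42.1 to 44.3%) and 33.0% of the whole list. No constituent was near a gene end in 473 of the 856 clusters (55.3%). Inside a protein-coding gene lay 2191 constituents (57.7%), against 54.7% of the whole list, and in 280 clusters (32.7%) every constituent was inside 1 gene. Constituents were assigned to the nearest protein-coding gene within 50 kb. By this assignment 604 clusters (70.6%) had 1 gene, 150 (17.5%) had 2, 33 (3.86%) had 3 or more and 69 (8.06%) had none.

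Over all positions, the share of constituents shared with stimulated Tconv was about that of other regions, and a smaller share was shared with the unstimulated lists. A counterpart is a region of another list that overlaps by at least 1 bp. Of the 3800 constituents, 1954 (51.4%, 49.8 to 53.0%) had a counterpart in stimulated Tconv, against 50.3% of regions outside clusters (49.1 to 51.4%) and 50.7% of the whole list. An unstimulated Treg counterpart was found for 451 constituents (11.9%, 10.9 to 12.9%), against 28.3% outside clusters (27.3 to 29.4%) and 22.7% of the whole list. An unstimulated Tconv counterpart was found for 332 (8.74%, 7.88 to 9.68%), against 25.9% outside clusters (24.9 to 26.9%) and 20.0% of the whole list. A total of 270 constituents (7.11%) were present in all 4 lists, against 14.8% of the whole list, and 1799 (47.3%, 45.8 to 48.9%) in no other list, against 44.2%. Outside clusters 42.6% were in no other list. This order was seen at neither kind of position. Near gene ends the shares in no other list were 28.9% of constituents and 29.4% of regions outside clusters. Away from gene ends they were 50.2% and 52.6%, and the intervals overlapped at both kinds of position. The intervals cover counting error over regions, which share their locus within a cluster and are not replicates. Each list is 1 pooled set, so no test over samples was possible. Several narrow constituents can touch 1 wide region of another list, and the 1954 constituents shared with stimulated Tconv touched 1866 regions there.

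The lower share of unstimulated counterparts was seen at both kinds of position. Near gene ends an unstimulated Treg counterpart was present for 37.3% of constituents (191 of 512) and 49.3% of regions outside clusters (1548 of 3143), and away from gene ends for 7.91% (260 of 3288) and 12.4% (514 of 4134). For unstimulated Tconv the shares were 29.9% of constituents and 46.2% of other regions near gene ends, and 5.44% and 10.4% away from them. Stimulated Tconv counterparts were present for a larger share of constituents than of other regions at both kinds of position, unlike the near-equal pooled shares. Near gene ends the shares were 65.4% of constituents (61.2 to 69.4%) and 57.8% of other regions (56.0 to 59.5%). Away from gene ends they were 49.2% (47.5 to 50.9%) and 44.6% (43.1 to 46.1%). Position moved together with clustering in the pooled shares. With 38.1 as the lowest −log10 p allowed in every list, an unstimulated Treg counterpart was found for 4.32% of constituents and 16.4% of regions outside clusters, and with a reciprocal overlap of 50% for 7.55% and 24.6%. For unstimulated Tconv these settings gave 3.24% of constituents and 14.4% of other regions, and 5.26% and 21.9%. The small difference in stimulated Tconv counterparts over all positions turned round under both settings. At the cut-off they were found for 60.9% of constituents and 62.3% of other regions, and with the reciprocal overlap for 43.6% and 46.3%. Other settings kept the direction. Stitching at 5000 bp gave 54.3% and 49.8%, and leaving out gene-end regions gave 49.7% and 44.7%. Stitching at 25000 bp gave 51.2% and 50.2%, and a minimum of 4 regions gave 51.9% and 50.3%.

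**Figure D2:**
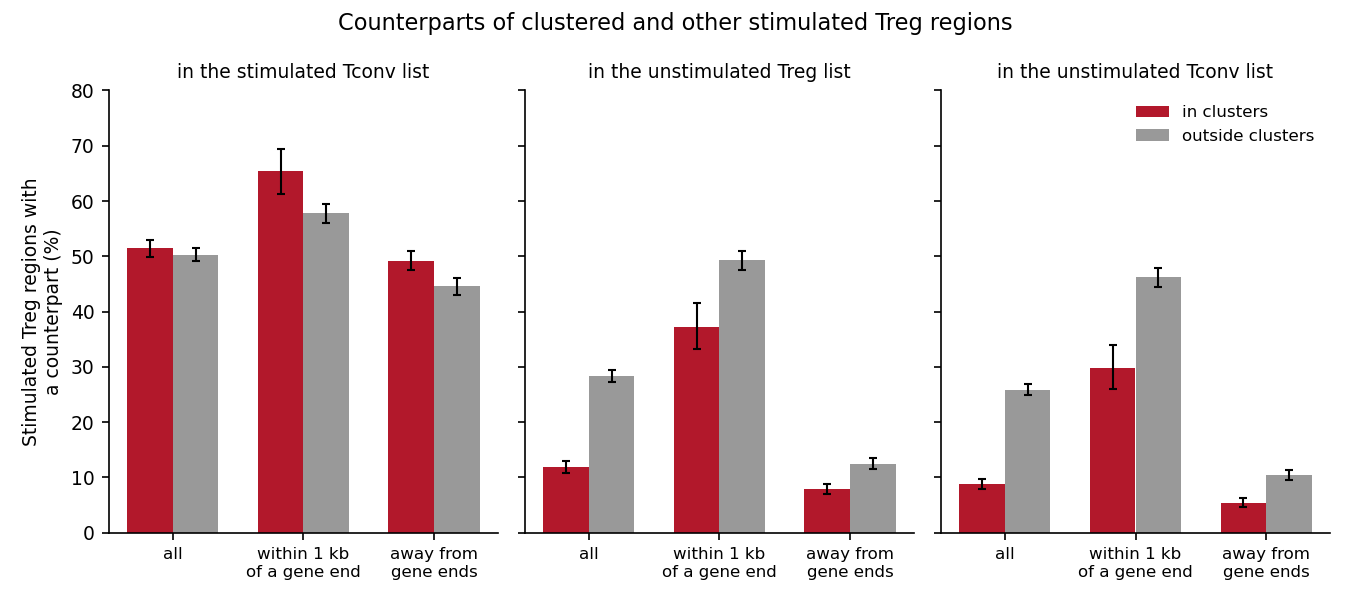
Percent of stimulated Treg regions with a counterpart in each other list (vertical axis), for regions in clusters and outside clusters, over all positions, within 1 kb of a gene end and away from gene ends. Bars are shares and lines are 95% Wilson intervals over regions: for unstimulated Treg the shares were 11.9% in clusters and 28.3% outside, and for stimulated Tconv 51.4% and 50.3%.

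Most clusters were mixed, with strong constituents shared and weak ones not. Every constituent had a stimulated Tconv counterpart in 95 clusters (11.1%), none had in 103 (12.0%), and some had in 658 (76.9%). In 620 of these 658 the constituents with a counterpart had the higher median fold, and over the 658 clusters the medians were 20.4-fold with a counterpart and 9.54-fold without. Of the strongest constituents of the 856 clusters 82.6% had a stimulated Tconv counterpart (79.9 to 85.0%), against 20.7% of the weakest (18.1 to 23.5%). For unstimulated Treg the shares were 23.5% of the strongest and 5.26% of the weakest, and for unstimulated Tconv 18.6% and 4.09%. Weak sites drop out of a list first, and whether the stimulated Tconv list lacks them for want of binding or of depth cannot be told apart here. The median fold was 13.0 in constituents and 11.0 in regions outside clusters.

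**Figure D3:**
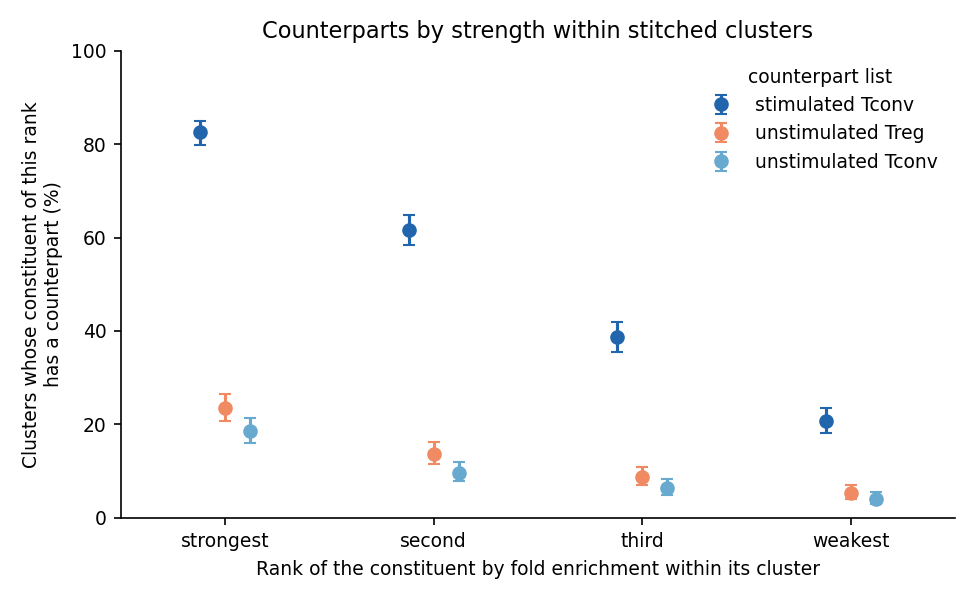
Percent of the 856 clusters (vertical axis) whose constituent of each rank by fold enrichment, with the weakest last, (horizontal axis) has a counterpart in each other list, with 95% Wilson intervals. Stimulated Tconv counterparts were found for 82.6% of the strongest and 20.7% of the weakest constituents, and in clusters of 3 the last 2 points are the same constituent.

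Constituents and other regions were also set side by side at like strength. The stimulated Treg list was divided by fold at 8.75, 11.5 and 17.5 into 4 sets of like size, and regions near gene ends were left aside. Above 17.5-fold a stimulated Tconv counterpart was present for 85.3% of constituents (990 of 1161, 83.1 to 87.2%) and 81.7% of regions outside clusters (79.2 to 84.0%). Between 11.5-fold and 17.5-fold it was present for 51.1% of constituents and 55.2% of other regions. Between 8.75-fold and 11.5-fold the shares were 25.1% and 28.2%. Below 8.75-fold it was present for 74 of 691 constituents (10.7%, 8.62 to 13.2%) and 161 of 1072 other regions (13.0 to 17.3%). Constituents thus had the higher share above 17.5-fold and the lower share in each set below it. The intervals overlapped in each of the 4 sets, although overlap does not show that the shares were equal. An unstimulated Treg counterpart was present above 17.5-fold for 16.2% of constituents and 18.4% of other regions, with overlapping intervals (14.2 to 18.4% and 16.1 to 20.9%). Between 11.5-fold and 17.5-fold it was present for 6.16% of constituents (4.65 to 8.12%) and 13.9% of other regions (12.0 to 16.2%), and between 8.75-fold and 11.5-fold for 2.47% (17 of 689, 1.55 to 3.92%) and 106 of 1008 (8.77 to 12.6%). Below 8.75-fold it was present for 1.30% of constituents (9 of 691, 0.687 to 2.46%) and 7.18% of other regions (5.79 to 8.89%).

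Few clusters had several constituents with an unstimulated Treg counterpart. In 518 clusters (60.5%) no constituent had an unstimulated Treg counterpart, in 251 (29.3%) 1 had and in 87 (10.2%) 2 or more had, and in 6 clusters every one had. Neither unstimulated list had a counterpart in 492 clusters (57.5%). Of the 451 constituents with an unstimulated Treg counterpart, 191 (42.4%, 37.9 to 47.0%) lay within 1 kb of a gene end, against 321 of the 3349 without (9.58%, 8.63 to 10.6%), and 90.5% had a stimulated Tconv counterpart, against 46.2%.

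The largest cluster held 20 constituents over 77.0 kb at the Gimap family (chr6:48672923-48749969), which encodes GTPases of lymphocyte survival. Of these 13 had a counterpart in stimulated Tconv, 2 in unstimulated Treg and 1 in unstimulated Tconv. Ptprc, which encodes the phosphatase CD45, held 19 over 67.3 kb (chr1:138130302-138197553), with 11 shared with stimulated Tconv and 0 with either unstimulated list. A cluster of 17 over 85.7 kb lay mostly inside Prkch, which encodes protein kinase C eta, with 2 of its constituents assigned to the neighbouring LOC115488016 and 11 shared with stimulated Tconv, 0 with unstimulated Treg and 1 with unstimulated Tconv. The Ptprc constituents ranged from 6.37-fold to 69.0-fold, and the strongest 9 all had a stimulated Tconv counterpart. Prkcq, which encodes the kinase protein kinase C theta that links the T cell receptor to NF-kB, held 16 over 94.1 kb, of which 11, 1 and 0 had a counterpart in stimulated Tconv, unstimulated Treg and unstimulated Tconv. A cluster at Ubac2 and the oxysterol receptor gene Gpr183 also held 16 (10, 2 and 1). A cluster of 13 at Lbh had 9, 1 and 1, and one of 13 at the Ms4a6 genes 8, 0 and 0. Among the 12 largest, the number of constituents with an unstimulated Treg counterpart was between 0 and 5.

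A cluster of 16 constituents over 78.9 kb covered the tumour necrosis factor locus (chr17:35164341-35243243), with Tnf, Lta and Ltb, which encode TNF family cytokines, and Nfkbil1. Of these constituents 13 had a counterpart in stimulated Tconv (9 regions there), 5 in unstimulated Treg and 4 in unstimulated Tconv, and its strongest region, 0.137 kb outside Tnf, reached 81.2-fold. Both regions assigned to Tnf had a stimulated Tconv counterpart and neither had an unstimulated one, while both regions of Lta were present in all lists. The longest cluster, with 17 constituents over 104.6 kb (chr7:73518331-73622907), was assigned to Chd2, which encodes a chromatin remodeller, with its strongest summit 47.6 kb outside the gene. Here 13 constituents were shared with stimulated Tconv, and 5 were present in all 4 lists, the most of any cluster.

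At genes of the Treg program, several clusters had no stimulated Tconv counterpart at all. The largest of these held 10 constituents over 53.0 kb (chr7:98531491-98584494) between Lrrc32, which encodes GARP, the docking receptor of latent TGF-beta on Treg, and Emsy. Its constituents ranged from 6.82-fold to 40.3-fold, and none had a counterpart in any other list. By nearest gene 8 of the 10 belonged to Emsy, 2.88 to 40.4 kb away, and 2 to Lrrc32. These 2 were the strongest, at 29.9 and 32.8 kb from Lrrc32. Ikzf2, which encodes the transcription factor Helios of Treg, had 21 constituents in 3 clusters of 7, 5 and 9, from 8.28-fold to 44.8-fold. Of the 21, 0 had a counterpart in stimulated Tconv or unstimulated Tconv and 1 in unstimulated Treg, a region of 9.72-fold 0.207 kb outside the gene. The cluster at Foxp3, which encodes the lineage factor of Treg, held 4 constituents over 18.7 kb (chrX:7566297-7584964). They reached 14.3-fold and 30.8-fold inside the neighbouring gene Ppp1r3f, 14.8-fold 0.204 kb outside Foxp3 and 32.1-fold inside Foxp3, and none had a counterpart in another list. The 5 constituents 9.05 to 27.5 kb outside Il10, a suppressive cytokine gene, reached 7.67-fold to 25.5-fold and had no counterpart either.

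Ctla4, the inhibitory receptor gene, had 7 constituents over 31.1 kb, of which the strongest, at 31.3-fold and 0.088 kb from the gene, was the single one with a stimulated Tconv counterpart. A further 3 constituents between Ctla4 and Icos had none. Further large clusters without a stimulated Tconv counterpart held 6 constituents each inside the survival gene Bcl2, at the kinase gene Nek7, and on chromosome 15 (chr15:5756635-5777673) with no protein-coding gene within 50 kb. The last reached 47.1-fold, and the nearest protein-coding gene to its strongest summit was Ptger4, which encodes a prostaglandin E2 receptor, 514.7 kb away. Bcl2 had 12 constituents in 3 clusters in all, and the 3 with a stimulated Tconv counterpart lay in the other clusters. Il2ra, which encodes the alpha chain of the IL-2 receptor, was mixed. Of the 12 constituents of its cluster (chr2:11619940-11665975) 6 had a stimulated Tconv counterpart, including the strongest, at 62.9-fold inside the gene, which also had the only unstimulated Treg counterpart. Among those without one, the strongest reached 31.9-fold, inside the gene at chr2:11665227-11665975.

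**Figure D4:**
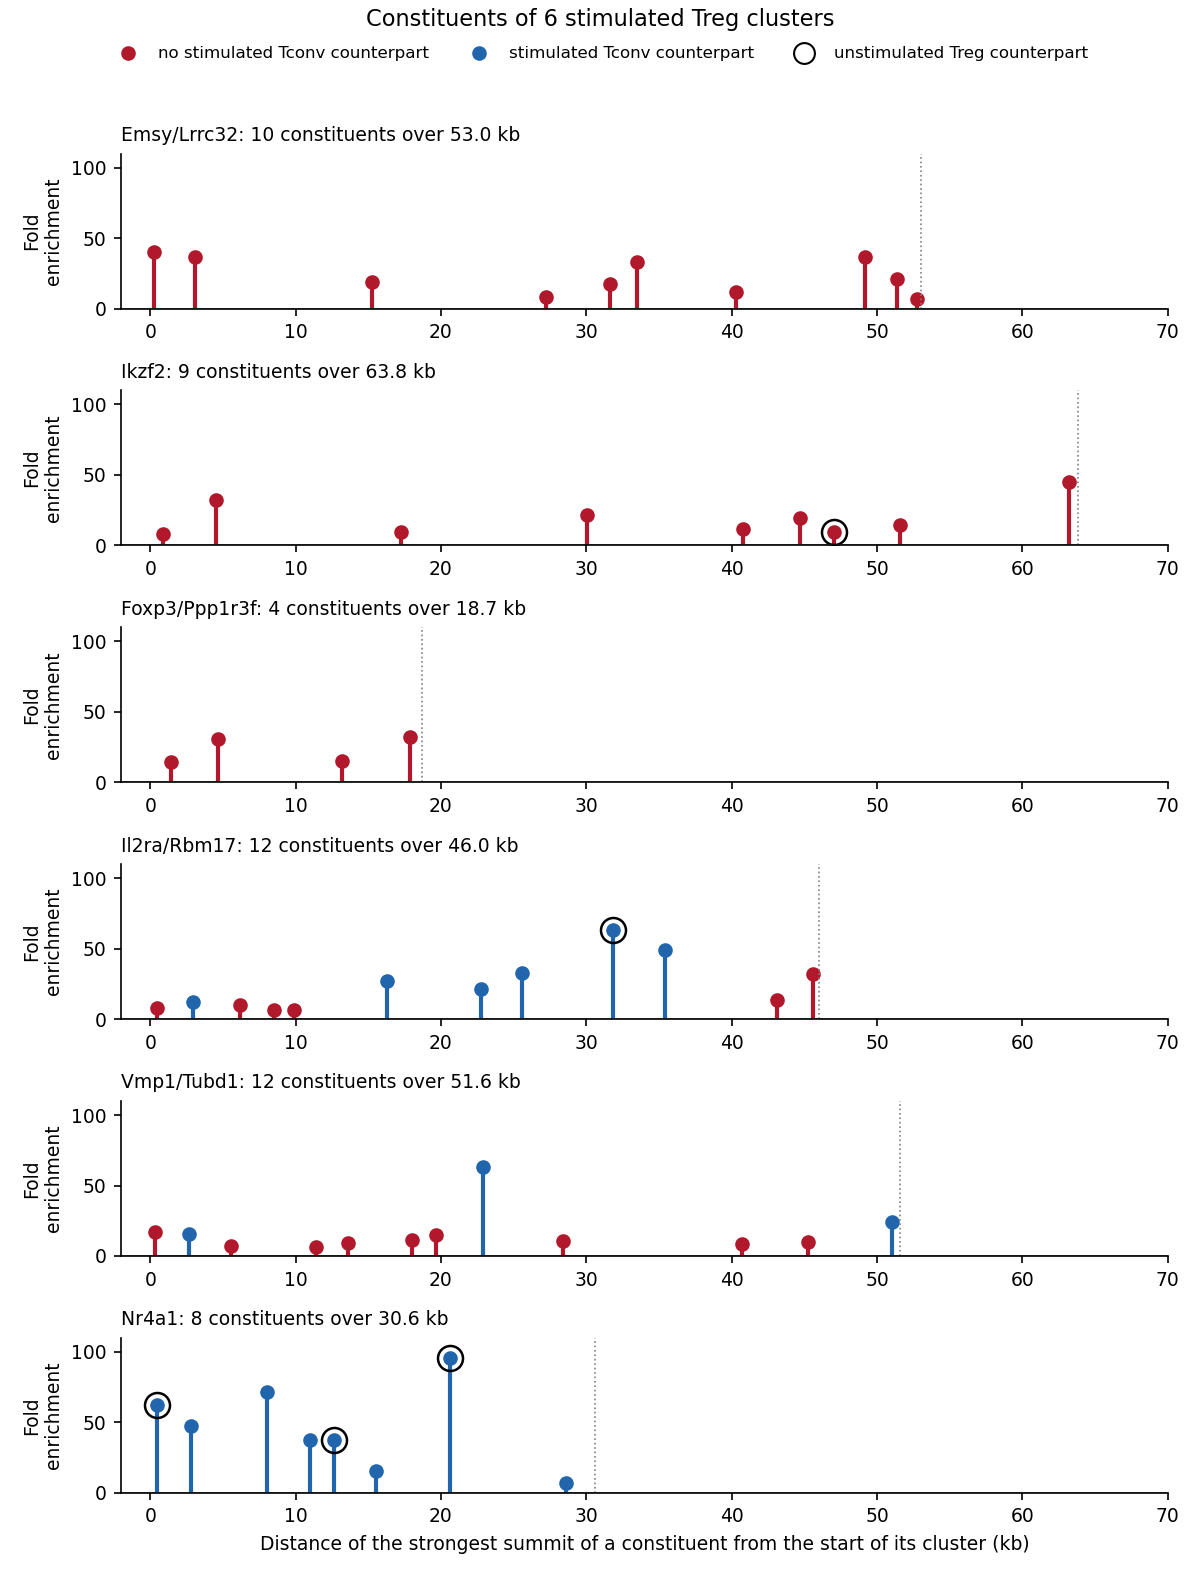
Fold enrichment over local background (vertical axis, to 110) of each constituent by its distance from the start of its cluster in kb (horizontal axis), for 6 clusters, with a dotted line at the cluster's end. Colour marks the presence of a stimulated Tconv counterpart and a ring an unstimulated Treg counterpart: 0 of 10 constituents at Emsy/Lrrc32, 0 of 9 in the largest Ikzf2 cluster, 0 of 4 at Foxp3, 6 of 12 at Il2ra, 3 of 12 at Vmp1 and 8 of 8 at Nr4a1 had a stimulated Tconv counterpart.

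Other clusters were shared entirely with stimulated Tconv. Nr4a1, an immediate-early nuclear receptor gene of T cell receptor signalling, had 8 constituents over 30.6 kb (chr15:101246013-101276579), which touched 6 stimulated Tconv regions. Their folds ran from 6.87 to 95.3, and 3 of them had a counterpart in unstimulated Treg and 2 in unstimulated Tconv. The summed fold of this cluster, 374.0, was the fourth highest after Gimap (399.5), Ptprc (389.6) and Prkch (380.3). Clusters of 7 at Spata48 and 6 at the G protein-coupled receptor gene Gpr132 were likewise shared. So were 6 constituents on chromosome 10 that lay 41.1 kb or more from the nearest protein-coding gene (3 of them assigned to Hbs1l). Also shared were 5 constituents between Pebp4 and the early growth response gene Egr3. The same held for 5 at chr9:61663897-61682137 with no protein-coding gene within 50 kb. In the Hbs1l and Pebp4/Egr3 clusters 0 constituents had an unstimulated counterpart, in the Spata48 and Gpr132 clusters 1 had one in each unstimulated list, and in the chromosome 9 cluster 2 had one in unstimulated Treg and 1 in unstimulated Tconv. Clusters in which all 3 constituents were present in all 4 lists lay at Eif4a1, Mpdu1 and Senp3 and at Chmp2a, Trim28 and Ube2m, where 2 and 3 constituents were near gene ends and no fold exceeded 14.9.

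At several NF-kB subunit and feedback genes, 1 constituent was present in every list, while no constituent of Nfkb1, Nfkbiz or Malt1 had an unstimulated counterpart. Of the 9, 4 and 2 regions of these 3 genes, 4, 2 and 1 were constituents, and their regions outside clusters are not covered here. Nfkbia, which encodes the inhibitor IkBa, had 2 clusters of 3, and its strongest constituent, at 101.6-fold over the gene, was also the strongest of all clusters. That region was present in all lists, 1 of 47.6-fold 24.4 kb outside the gene was present in both stimulated lists and unstimulated Treg, and 3 of the 6 had no stimulated Tconv counterpart. Tnfaip3, which encodes the deubiquitinase A20, had 2 clusters of 3 with 5 of 6 constituents shared with stimulated Tconv, and the strongest, at 86.1-fold and 0.082 kb outside the gene, was present in all lists. Rel, which encodes the subunit c-Rel, had 5 constituents over 19.6 kb. The strongest, 61.2-fold inside the gene, had a stimulated Tconv counterpart and no unstimulated one, while the next, 44.7-fold at the promoter printed above, was present in all lists. Nfkb1, which encodes p105 and p50, had 4 constituents 21.5 to 39.7 kb outside the gene, of which 3 had a stimulated Tconv counterpart and 0 an unstimulated one. Bcl3, an atypical IkB gene, had 3 constituents, all with counterparts in stimulated Tconv and unstimulated Treg and 1 with one in unstimulated Tconv.

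By gene list, the share of constituents with a stimulated Tconv counterpart was lowest near Treg identity genes and highest near NF-kB genes among the lists with over 24 constituents. Of the constituents near 38 Treg identity genes, 31 of 114 (27.2%, 19.9 to 36.0%) had one, and of those near co-stimulation and TNF receptor genes, a list that shares Cd83, Ctla4, Icos, Tigit, Tnfrsf4, Tnfrsf9 and Tnfrsf18 with it, 37 of 101 (36.6%, 27.9 to 46.4%). The share was 72.5% near NF-kB family and feedback genes (37 of 51, 59.1 to 82.9%), 64.8% near early activation genes (57 of 88, 54.4 to 73.9%), 60.8% near naive and lineage transcription factor genes (79 of 130), 60.6% near T cell receptor signalling genes (66 of 109), and 51.4% over all constituents. Unstimulated Treg counterparts were present for 7.89%, 9.90%, 33.3%, 19.3%, 8.46% and 7.34% of the constituents of these lists in the same order. Over all constituents this share was 11.9%. The median folds of the lists in that order were 14.0, 12.7, 17.9, 16.5, 15.1 and 13.7, against 13.0 over all constituents. Lists were not compared at like fold. None of the constituents had a stimulated Tconv counterpart at 11 of the 25 Treg identity genes with a constituent, against 159 of all 908 genes with a constituent. The 11 were Ikzf2, Il10, Foxp3, Itgb8, Tigit, Plagl1, Rora, Icos, Ikzf4, Lrrc32 and Tnfrsf4. On the co-stimulation list there were 5 of 20, and on the NF-kB and early activation lists 0 of 15 and 0 of 21. Other Treg identity genes went the other way. A stimulated Tconv counterpart was present for all constituents at Prdm1 (4 of 4), Tgfb1 (2 of 2) and Tnfrsf18 (2 of 2), and for 3 of 4 at Lag3. Of the 11, 9 had 3 constituents or fewer, while Ikzf2 alone gave 21 of the 114 Treg identity constituents. The intervals count constituents singly, although those of 1 gene share a locus. The lists were chosen with earlier results of these data known.

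**Figure D5:**
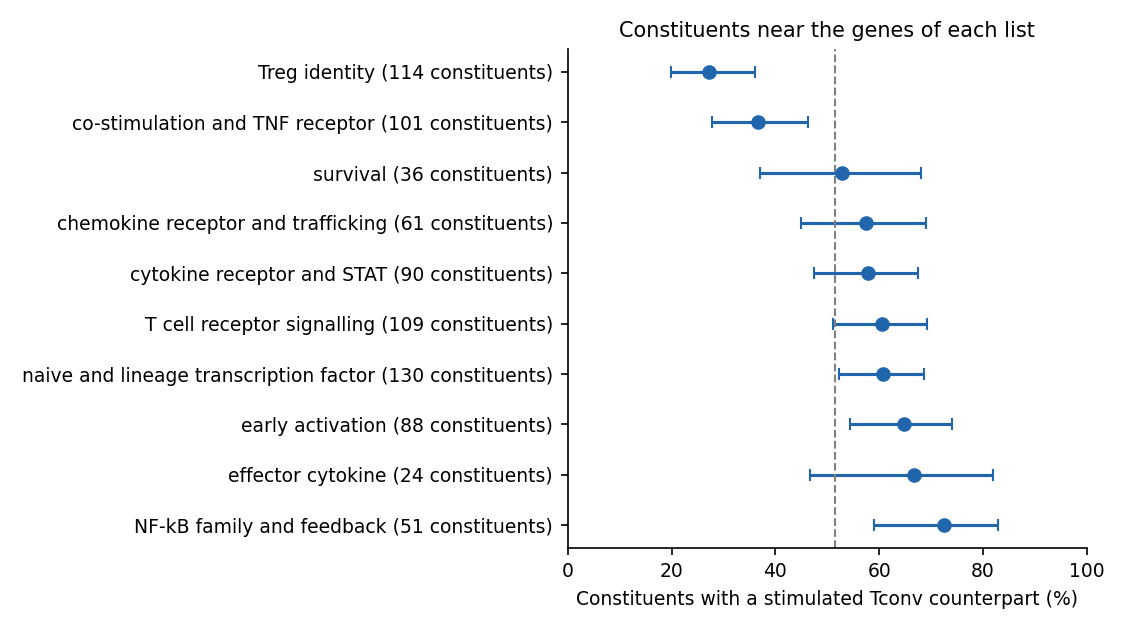
Percent of constituents with a stimulated Tconv counterpart (horizontal axis) near the genes of each list (vertical axis, with the number of constituents), with 95% Wilson intervals and a dashed line at 51.4%, the share over all constituents. The Treg identity list lay at 27.2% and the NF-kB list at 72.5%, and lists share genes.

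Many genes of these lists had clusters. A constituent was assigned to 25 of the 34 Treg identity genes with a stimulated Treg region, 21 of 30 early activation genes, 15 of 25 NF-kB genes, 20 of 23 co-stimulation and TNF receptor genes and 17 of 24 T cell receptor signalling genes, against 16.5% of all 5505 genes with a region (908 genes) and 1 of 17 ribosomal protein genes. These counts rest on the positions that defined the clusters and are a description. Among naive and lineage transcription factor genes, Foxp1 had 33 constituents in 7 clusters, the most of any gene, of which 16 had a counterpart in stimulated Tconv, 0 in unstimulated Treg and 1 in unstimulated Tconv. Bach2, a repressor that restrains effector programs, had 21 in 4 clusters, of which 18 had a stimulated Tconv counterpart, against 0 of the 21 of Ikzf2. Ets1 had 12 (8 shared with stimulated Tconv) and Lef1, a transcription factor of naive T cells, 11 (8). Of the T cell receptor signalling genes, Cd247, which encodes the zeta chain, had 11 (6), Cblb, an E3 ligase gene that limits activation, 11 (8) and Zap70, the kinase that binds the zeta chain, 3 (3), with up to 90.2-fold. On the cytokine receptor and STAT list, which also holds Jak kinase genes, Il6ra had 10 (7), Jak1 9 (5) and Stat5b 7 (5). Of the trafficking genes, Ccr7 had 10 (9), Cd2, an adhesion receptor gene, 10 (4) and Ccr1 5 (0). Of the co-stimulation genes, Cd226 had 11 (1), Cd28 9 (7), Cd83 8 (1) and Pdcd1, which encodes PD-1, 7 (2). In these pairs the first number counts constituents and the number in parentheses those with a stimulated Tconv counterpart. The 4 constituents at Bcl2a1b, a member of a family of near-identical genes, are uncertain in their position.

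The densest clusters with 5 or more constituents lay at Pitpnm2 (5 over 8.03 kb) and at Ubl3 (5 over 8.69 kb). Next came 1 on chromosome 17 (5 over 9.10 kb) and 1 at the interferon-induced GTPase gene Gbp4 (5 over 9.24 kb). Then came 1 at Fam53b (5 over 11.1 kb). On chromosome 17 the nearest constituent was 49.5 kb from Fgd2, and the other 4 were over 50 kb from any protein-coding gene. Of the constituents of these clusters, in the order given, 2, 3, 1, 3 and 2 had a stimulated Tconv counterpart. Across all clusters the density had a median of 2.42 constituents per 10 kb.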

How the data were processed

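Binding of p65 was measured by ChIP-seq in 8 immunoprecipitated libraries of 4 groups and 2 input libraries of mixed chromatin. Per the submitters' processing notes, MACS2 2.1.1.20160309 was used beside BWA 0.7.15-r1140 and Trim Galore 0.4.1, with mm10 as the build. The 4 deposited peak lists, per their file names, hold reproducible peaks of pooled libraries without blacklisted regions, so depth and values per library are unknown here, and depth bears on the length of each list. The fold enrichment is the authors' ratio of a summit over its local background, the −log10 p is the authors' deposited value for that summit, and the deposited score is 10 times the −log10 p without decimals.

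Merging, stitching, overlaps and gene assignment used Python 3.11.15 with pandas 2.3.3 and were tested on simulated regions with known clusters. Genes came from RefSeq's table for GRCm38.p6 (21887 protein-coding genes); the distance of a region is that of its strongest summit to the nearest gene body, within 50 kb. Shares carry 95% Wilson intervals. The clusters and the 13 gene lists (329 different genes, all matched to the table) were chosen with earlier results of these data known. Named clusters are the largest, strongest, longest and densest, those wholly shared or unshared with stimulated Tconv, those in all lists, fixed genes and the leading genes of each list; not all are printed, and 1 of them is not reported here. Promoter windows were not held for every gene, and peak sequences were not analysed here. Alternatives were other stitching distances, a larger minimum, a common cut-off, a reciprocal overlap, gene-end regions left out and a nearer gene distance.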

Additional observations from a re-analysis of the deposited data

How the results depend on the processing

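No paired analysis was possible because each peak list pools both libraries of its group, and for the same reason no library could be left out. Of 45 values under other settings, 14 stayed within the interval of the reported share, or within 1.5 times the reported count, and 31 moved beyond it. Stitching at 5000 bp gave 559 clusters with 18.8% of regions, counterparts in stimulated Tconv for 54.3% of constituents, none in any list for 44.8%, a stimulated Tconv cluster at 23.8% of clusters and clusters at 14 Treg identity genes. Stitching at 25000 bp gave 48.1% of regions, unstimulated Treg and Tconv counterparts for 14.2% and 11.0%, and a Tconv cluster at 38.6%. With 4 or more regions there were 464 clusters with 23.7% of regions, unstimulated counterparts for 10.8% (Treg) and 7.62% (Tconv), a Tconv cluster at 22.6% and 16 Treg identity genes. At the common −log10 p cut-off the values were 31.1% of regions, 60.9%, 4.32% and 3.24% with stimulated Tconv, unstimulated Treg and unstimulated Tconv counterparts, 39.0% with none and 41.0% with a Tconv cluster. Without gene-end regions they were 39.2%, 49.7%, 7.56%, 5.26% and 49.8%. A reciprocal overlap of 50% gave 43.6%, 7.55%, 5.26% and 54.7%. The cause of each shift beyond the change of setting was not tested. Under each of these settings the share with an unstimulated Treg counterpart was lower in clusters than outside them. Unknown depth limits every absence: a region missing from a list may lie below its end.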
